A study of Mus musculus with 16 samples.

Results

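The liver makes bile acids from cholesterol, conjugates them and pumps them into bile, and 10 genes of that work were followed in liver RNA. Cyp7a1, Cyp8b1, Cyp27a1, Cyp7b1 and Baat encode enzymes of synthesis and conjugation, and Slc10a1, Abcb11, Abcc2, Abcc3 and Abcb4 encode transporters of the hepatocyte membrane. They were chosen by name among the 50559 gene symbols of the count table, all 10 were found there, and all 10 were among the 18335 genes with enough counts to be tested. The libraries came from male C57BL/6J mice (C57Bl6 in the labels), with 4 livers in each of 4 groups. The mice were 6 weeks old when the diets began, the feeding lasted 10 weeks, and treatment filled the final 4 of these. The LFD group ate the low-fat diet, which the labels call chow, and the HFD group ate a high-fat diet. Both received a control siRNA against luciferase (10 mg/kg, repeated at intervals of 2 weeks) and gavages of methylcellulose. Mice of the HFD + siRNA group ate the high-fat diet and received methylcellulose and, instead of the control, siRNA at 20 mg/kg against ketohexokinase (KHK), the enzyme that phosphorylates fructose. That siRNA carries N-acetylgalactosamine, which directs it to hepatocytes. The HFD + Inhib group ate the high-fat diet and received the control siRNA and PF-06835919, a small molecule inhibitor of the kinase activity of KHK that acts in the whole body, at 15 mg/kg by gavage. All mice were given saline or insulin through a vein 10 minutes before the tissue was collected, and the labels do not say which mouse received which. The 2 KHK treatments therefore differed in the agent, in its dose and in the organs it reached.

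Synthesis runs along a classic route, opened by the 7α-hydroxylase Cyp7a1, and an alternative route, opened by Cyp27a1 and continued by Cyp7b1. Cyp8b1 adds the 12α-hydroxyl group that sets the share of cholic acid, and Baat joins bile acids to taurine or glycine. Slc10a1 brings bile acids back from the blood, Abcb11 exports them into the canaliculus, Abcc2 exports conjugated organic anions there, Abcb4 carries phosphatidylcholine to the canalicular leaflet, and Abcc3 exports organic anions back to the blood.

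Expected counts summed to between 24317111 and 35820234 per library (median 29570114). Levels are given as CPM after TMM normalization, that is the share of a library's counts that fell on the gene, on a common scale. A difference is a log2 fold change ± SE from edgeR's quasi-likelihood test over all 18335 genes, and a gene was called changed at an adjusted p under 0.05. Khk, the target of both treatments, was measured first. It was at 251, 322, 233 and 251 CPM in the HFD libraries and at 11.8, 9.14, 18.1 and 11.5 CPM in the HFD + siRNA libraries (log2 fold change -4.38 ± 0.23, adjusted p = 1.9e-08). In the HFD + Inhib libraries it was at 112, 152, 94.6 and 120 CPM (-1.14 ± 0.20, adjusted p = 7.5e-04). Every library with the KHK siRNA was thus below every other library, as its label says.

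Some libraries stood apart from the rest of their group. LFD replicate 3 and HFD + Inhib replicate 4 had 14.2 and 8.81 CPM of Krt19, a keratin of bile ducts. The others had at most 1.81 CPM. Levels of the duct mucin gene Muc1 were 11.4 and 8.78 CPM. Krt7 and Epcam were also highest in these 2 libraries, but Sox9, Cftr, Slc10a2 and Spp1 were not. Slc10a2 was the lowest of its group in LFD replicate 3 (6.63 CPM), and Sox9 in HFD + Inhib replicate 4 (7.26 CPM). The duct list summed to 64.2 and 66.4 CPM in these 2, inside the HFD range (62.5 to 89.4 CPM). They are called below the libraries with bile duct markers, after Krt19 and Muc1. The hepatocyte markers were present in all 16 libraries, with Alb (albumin) the most abundant, but the summed level of the 8 markers was 41555 to 45110 CPM in the HFD + Inhib libraries and 58289 to 93938 CPM in the other 12. Alb, at 27701 to 31981 CPM in the inhibitor group and 42757 to 54190 CPM in the HFD group, fell with the inhibitor (-0.77 ± 0.13, adjusted p = 7.6e-04) and made up most of this sum. Of the 8 markers 3 fell (Alb, Ttr and Cps1) and none rose, where 8.42% of all tested genes fell and 9.80% rose. Apoa1, Ass1, Serpina1a, Tat and Hpd were not called, with log2 fold changes of -0.27, -0.33, -0.25, 0.24 and 0.15. In RNA of whole liver, fewer hepatocytes and less RNA per hepatocyte cannot be told apart, and the part of this marker level in the values of the 10 genes was not tested. Fold changes were also related to the GC content of transcripts. Over 8342 genes with high counts, which share libraries and are no replicates of each other, their Spearman correlation was -0.50 for HFD versus LFD, 0.474 for the siRNA against HFD, -0.269 for the inhibitor against HFD and -0.51 for the inhibitor against the siRNA. Against LFD it was -0.0859 for the siRNA and -0.536 for the inhibitor. GC content of the 10 genes ran from 39.7% in Cyp7a1 to 54.8% in Cyp8b1. For these 10, values corrected for GC content and length are therefore given where they change a call. Genes of the further lists are given from the uncorrected fit of all libraries, and their calls were not checked under this correction or any other alternative.

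Stretches of promoter sequence are shown for 4 of the genes that differed between groups, because each holds letters that factors of bile acid control or of the daily rhythm are known to prefer. They are the 120 bases before the start of the gene, 5′ to 3′ along the gene's strand, from RefSeq for build GRCm38.p6, whereas the counts were made on mm39. Capitals mark the match. In Cyp27a1 it is the D-box TTATGNAA (60 to 53 bases before the start), which PAR-bZIP factors such as Dbp bind. In Cyp8b1 it is CAAAGTCCA (67 to 59 bases before the start), a form of the HNF4 motif. In Abcb11 and Slc10a1 it is the nuclear receptor half-site AGGTCA, which lies on the opposite strand of Abcb11, where it reads TGACCT (56 to 51 bases before the start), and on the gene's strand of Slc10a1 (87 to 82 bases before the second of its 2 listed starts).
Cyp27a1, chr1:74713415-74713534, + strand: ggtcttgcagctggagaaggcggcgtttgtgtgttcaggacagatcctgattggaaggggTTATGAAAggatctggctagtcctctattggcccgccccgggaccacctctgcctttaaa
Cyp8b1, chr9:121916306-121916425, - strand: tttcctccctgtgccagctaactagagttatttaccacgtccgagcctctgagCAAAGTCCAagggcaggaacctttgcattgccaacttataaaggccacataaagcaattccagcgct
Abcb11, chr2:69342617-69342736, - strand: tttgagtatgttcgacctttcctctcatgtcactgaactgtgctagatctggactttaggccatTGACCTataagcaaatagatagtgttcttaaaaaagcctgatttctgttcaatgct
Slc10a1, chr12:80968080-80968199, - strand: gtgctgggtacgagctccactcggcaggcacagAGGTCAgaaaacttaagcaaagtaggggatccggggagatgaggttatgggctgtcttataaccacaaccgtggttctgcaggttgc
Matches were sought on both strands in the 250 bases before each start. Of all 32851 promoters in the table, 14% held AGGTCA, 3.07% held TTATGNAA and 0.384% held CAAAGTCCA. The table held 6 of the 10 genes. Abcc2 also held AGGTCA (49 to 44 bases before the start), Abcb4 held none of these, and the longer ROR element, which contains the half-site and stood in 0.177% of promoters, was in none of the 6. Such matches describe the letters only.

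Per kb of transcript, the scale on which genes can be compared with each other, Slc10a1 was the most abundant of the 10 in LFD livers at 247 ± 70.6 CPM per kb (SD, n = 4), followed by Cyp27a1 at 223 ± 26.1, within that spread. Abcb11 (176 ± 24.7) and Cyp8b1 (174 ± 39.4) came next and differed by less than their spread. Cyp7a1, the enzyme that opens the classic route, was the lowest of the 10 at 25.5 ± 19.0 CPM per kb, and its mean was the lowest in every group. In HFD, at 30.3 ± 15.5, it was within the spread of Cyp7b1 at 37.3 ± 10.3. Above Cyp7a1 in LFD lay Abcc3 (60.9 ± 10.1), Abcb4 (64.0 ± 10.0) and Cyp7b1 (72.7 ± 4.29), whose neighbours in the order did not differ beyond their spread. Abcc2 (95.6 ± 15.3) and Baat (132 ± 16.3) followed. The order changed in the HFD + Inhib livers. Cyp8b1 came first at 236 ± 38.2 CPM per kb and Slc10a1 second at 217 ± 25.2, a difference within their spread. Abcb4 took the fourth place at 124 ± 5.82, against the eighth place in LFD. That place lay within the spread of its neighbours, Abcc2 at 118 ± 3.94 and Abcb11 at 113 ± 11.6, and with the longest transcript of each gene Abcb4 came to the fifth place, against the ninth in LFD.

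**Figure D1:**
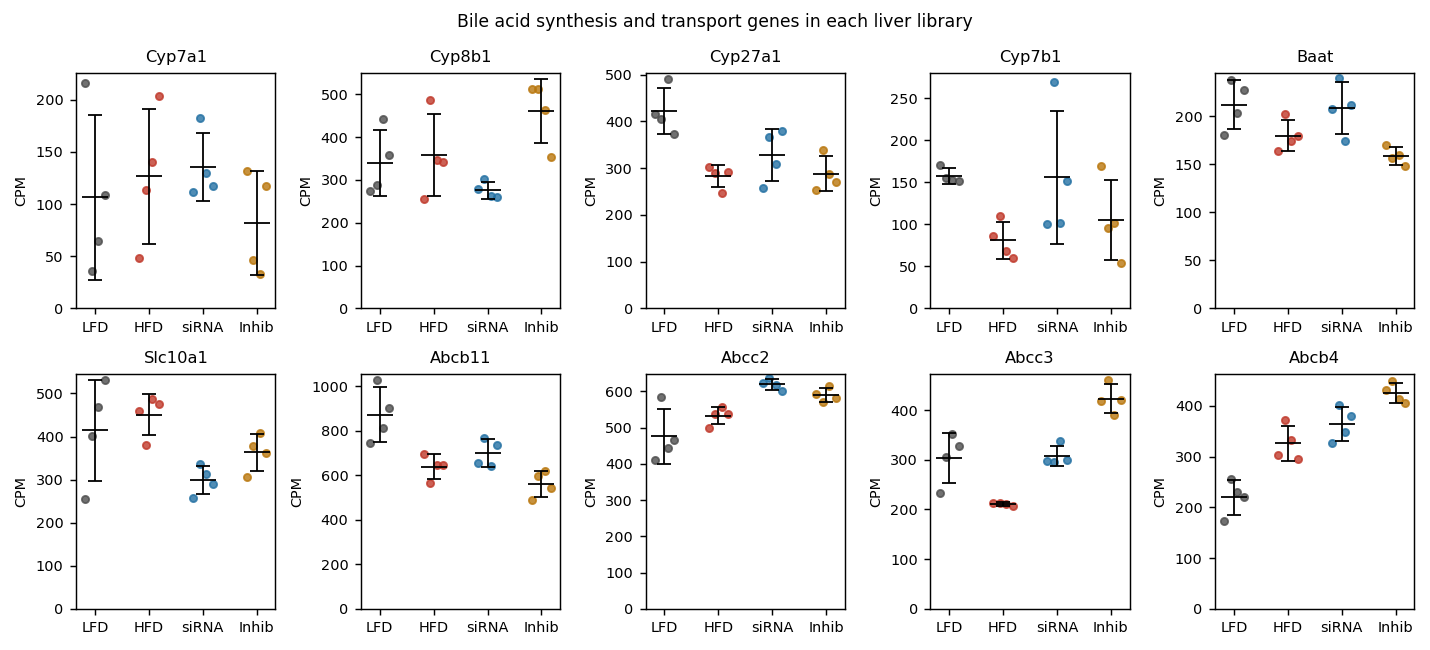
Each panel plots 1 of the 10 genes, with CPM (TMM-scaled) on the y axis from 0 and the 4 groups on the x axis (siRNA and Inhib stand for HFD + siRNA and HFD + Inhib). Each point is 1 liver library, and bars give the mean ± SD of 4 libraries. The 4 HFD libraries lie close together for Abcc3 (206 to 214 CPM), while the LFD libraries are spread widely for Cyp7a1 (36 to 216 CPM).

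On the high-fat diet, transcripts of the alternative route and of bile salt export were lower than on the low-fat diet, and the phospholipid carrier was higher. Of the 10 genes, 4 fell (Cyp27a1, Cyp7b1, Abcb11 and Abcc3) and 1 rose (Abcb4) in HFD versus LFD, where 18.4% of all tested genes were called, 9.58% higher and 8.80% lower. The 2 groups did not overlap for the 5 called genes, nor for 20.4% of all tested genes. The median log2 fold change of the 10 was -0.08, beside -0.01 for all tested genes. With the KHK siRNA on the high-fat diet, 1 of the 10 rose (Abcc3) and 1 fell (Slc10a1), with 11.7% of all genes called (5.20% higher and 6.55% lower), and the median was 0.18 beside 0.02 for all genes. With the inhibitor 2 rose (Abcc3 and Abcb4) and none fell, with 18.2% of all genes called (9.80% higher and 8.42% lower), and the median was 0.09 beside 0.00 for all genes. The counts for both treatments were close to the background share or not far above it, so the description below rests on the single genes. Both treatments were compared with the same 4 HFD libraries, and the direct comparison of the 2 treatments tested their difference. There, 4 of the 10 were called, Cyp8b1 and Abcc3 higher and Baat and Abcb11 lower with the inhibitor, where 33.8% of all genes were called, 17.3% higher and 16.6% lower. The libraries of the 2 treatments did not overlap for 5 of the 10 (these 4 and Abcb4), and for 32.4% of all genes.

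**Figure D2:**
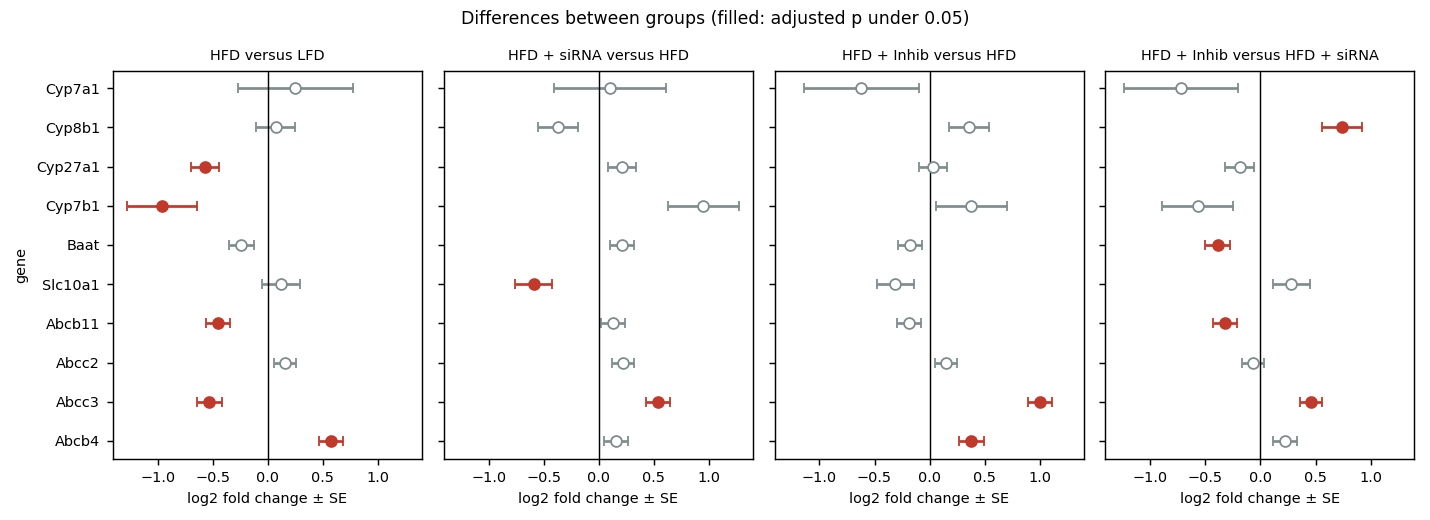
Log2 fold change on the x axis, with the SE as bars, for each of the 10 genes on the y axis, in 4 panels from left to right for the diets, for the siRNA against HFD, for the inhibitor against HFD and for the inhibitor against the siRNA. Filled points had an adjusted p under 0.05 in edgeR's quasi-likelihood test. Abcc3 is the single gene filled in all 4 panels, at -0.53, 0.54, 1.0 and 0.46, and Cyp7a1 has the widest bars.

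Cyp7a1, the rate-limiting enzyme of the classic route, varied more between mice of a group than between groups. Its levels were 216, 36, 64.5 and 109 CPM in LFD, 47.9, 114, 140 and 204 CPM in HFD, 112, 183, 130 and 117 CPM in HFD + siRNA, and 132, 46.8, 32.7 and 117 CPM in HFD + Inhib. All 4 groups overlapped. The largest of the 4 differences shown in the plot of fold changes was -0.72 ± 0.52 between the inhibitor and the siRNA (adjusted p = 0.30), and the difference from HFD was 0.10 ± 0.51 with the siRNA (adjusted p = 0.926) and -0.62 ± 0.52 with the inhibitor (adjusted p = 0.455). The value for HFD versus LFD was 0.25 ± 0.52 (adjusted p = 0.78) and turned to -0.25 after the GC correction, to -0.04 without LFD replicate 2 and to -0.08 without HFD replicate 4.

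Cyp8b1, the 12α-hydroxylase, separated the 2 KHK treatments. It was at 279, 303, 263 and 259 CPM with the siRNA and at 512, 512, 464 and 354 CPM with the inhibitor, so that every inhibitor library was above every siRNA library. The difference was 0.74 ± 0.18 (1.67-fold, adjusted p = 0.00525). The HFD libraries, at 256, 486, 346 and 342 CPM, spanned most of both ranges, and neither difference from HFD passed the threshold (-0.37 ± 0.18 with the siRNA, adjusted p = 0.197, and 0.36 ± 0.18 with the inhibitor, adjusted p = 0.182). The LFD libraries were at 273, 289, 442 and 357 CPM and overlapped those of HFD. After the GC correction, Cyp8b1 was also called higher with the inhibitor than in LFD (0.62, adjusted p = 0.0124), where the uncorrected value was 0.44 ± 0.18 (adjusted p = 0.0683). That difference also became a call without LFD replicate 3 (0.59, adjusted p = 0.0245) or HFD + Inhib replicate 4 (0.54, adjusted p = 0.0356), and the inhibitor group exceeded HFD without HFD replicate 2, its highest library (0.55, adjusted p = 0.0423).

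Cyp27a1, the mitochondrial sterol 27-hydroxylase, fell on the high-fat diet. LFD libraries were at 416, 406, 491 and 374 CPM and HFD libraries at 303, 290, 248 and 292 CPM, with no overlap (-0.57 ± 0.13, adjusted p = 0.00694). The levels were 258, 367, 309 and 379 CPM with the siRNA and 253, 340, 288 and 271 CPM with the inhibitor. Neither difference from HFD passed the threshold (0.21 ± 0.13, adjusted p = 0.306, and 0.03 ± 0.13, adjusted p = 0.921). Against LFD, the inhibitor group was lower (-0.55 ± 0.13, adjusted p = 0.0035), and the siRNA group had -0.36 ± 0.13 (adjusted p = 0.0974) with 1 library of 379 CPM inside the LFD range.

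Cyp7b1, the oxysterol 7α-hydroxylase, is more abundant in male than in female mouse liver. LFD libraries held 171, 155, 153 and 151 CPM and HFD libraries 86.0, 110, 67.8 and 59.6 CPM, a fall without overlap (-0.96 ± 0.32, 1.95-fold lower, adjusted p = 0.046). This call stood close to the threshold. It was lost without any 1 of the 4 LFD libraries, or without HFD replicate 1, 3 or 4, with adjusted p between 0.0631 and 0.134 and a fold change of -0.99 to -0.84. The siRNA libraries were at 101, 269, 102 and 151 CPM and the inhibitor libraries at 169, 96.2, 102 and 54.4 CPM, and both groups overlapped HFD. The value was 0.95 ± 0.32 with the siRNA (adjusted p = 0.0649) and 0.38 ± 0.32 with the inhibitor (adjusted p = 0.454). After the GC correction the siRNA value was 1.14 and past the threshold (adjusted p = 0.0315), and the inhibitor group was lower than the siRNA group (-0.90, adjusted p = 0.0409). The inhibitor group was then also lower than LFD (-0.97, adjusted p = 0.0284). Uncorrected and without HFD + Inhib replicate 1, the highest of its group, the inhibitor group was called lower than the siRNA group (-0.88, adjusted p = 0.0445) and than LFD (-0.90, adjusted p = 0.0371). The siRNA mean rested largely on replicate 2, at 269 CPM. Without it, the value was 0.53 for the siRNA against HFD (adjusted p = 0.254) and -0.15 for the inhibitor against the siRNA (adjusted p = 0.714).

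Cyp7b1 did not stand alone among the male-biased genes. Of the 8 on that list, which also holds Slco1a1, 6 fell in HFD versus LFD, Cyp7b1 among them, and none rose (8.80% of all genes fell and 9.58% rose). Elovl3, a fatty acid elongase, had LFD levels of 341, 349, 389 and 240 CPM and HFD levels of 73.1, 145, 49.0 and 23.0 CPM (-2.18, adjusted p = 0.00608), and Mup20, a major urinary protein, fell by 1.23 on the log2 scale (adjusted p = 0.00835). With the siRNA, Elovl3 rose relative to HFD, with overlapping libraries (1.97, adjusted p = 0.0144). No other gene of the list was called there (5.20% of all genes rose and 6.55% fell). The list did not move as one with the inhibitor, where 2 of the 8 rose and 2 fell relative to HFD (9.80% and 8.42% of all genes). Cyp4a12a, an arachidonic acid hydroxylase, rose (3.29, adjusted p = 5.4e-05) and Hsd3b5, a steroid dehydrogenase, fell (-3.65, adjusted p = 0.00439). Of 8 female-biased genes 5 were tested, and 3 of these rose in HFD versus LFD (9.58% of all genes did). Cyp2b9 was among them, from at most 1.0 CPM to between 39.9 and 199 CPM (adjusted p = 1.1e-04). A gene near 0 in LFD passes the count filter only through groups where it is higher. A rise of such a gene was thus partly set by the filter, and this count is not evidence beside Cyp7b1. Whether Cyp7b1 and these genes moved for a shared reason was not tested.

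Baat, the conjugating enzyme, was lower with the inhibitor than with the siRNA. Its levels were 207, 240, 174 and 212 CPM with the siRNA and 170, 156, 160 and 148 CPM with the inhibitor, without overlap (-0.39 ± 0.11, adjusted p = 0.00976). The inhibitor libraries also lay below all 4 LFD libraries at 180, 238, 203 and 227 CPM (-0.42 ± 0.11, adjusted p = 0.00601). HFD libraries, at 164, 202, 174 and 179 CPM, overlapped both the LFD and the inhibitor libraries. The differences from HFD were -0.18 ± 0.11 with the inhibitor (adjusted p = 0.262) and 0.21 ± 0.11 with the siRNA (adjusted p = 0.222). After the GC correction the inhibitor group was lower than HFD (-0.32, adjusted p = 0.0132), and HFD was lower than LFD (-0.31, adjusted p = 0.0218).

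Slc10a1, the sodium-dependent carrier that takes bile acids up from portal blood, fell with the siRNA. HFD libraries were at 460, 381, 487 and 475 CPM and HFD + siRNA libraries at 258, 335, 314 and 289 CPM, without overlap (-0.59 ± 0.17, 1.51-fold lower, adjusted p = 0.0342). This call was lost without HFD replicate 1, 3 or 4 or HFD + siRNA replicate 1, 3 or 4 (adjusted p between 0.0576 and 0.0954). With the inhibitor the levels were 306, 377, 407 and 362 CPM, which overlapped HFD in 1 library (-0.31 ± 0.17, adjusted p = 0.23). The treatments did not differ from each other past the threshold (0.28 ± 0.17, adjusted p = 0.219). LFD libraries ranged most, at 255, 402, 468 and 531 CPM. Without LFD replicate 1, the lowest of them, the siRNA group was also lower than LFD (-0.65, adjusted p = 0.00689, beside -0.47 ± 0.17 and 0.106 with it), and so was the inhibitor group (-0.36, adjusted p = 0.0461, beside -0.19 ± 0.17 and 0.409). With all libraries, the siRNA group was lower than LFD after the GC correction (-0.51, adjusted p = 0.0443).

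Abcc3, the basolateral export pump that can return conjugated bile acids and bilirubin to the blood, moved in most comparisons. LFD libraries held 234, 306, 351 and 327 CPM and HFD libraries 212, 214, 211 and 206 CPM (-0.53 ± 0.11, adjusted p = 0.0034). Both treatments were higher than HFD, with 297, 295, 338 and 299 CPM with the siRNA (0.54 ± 0.11, 1.46-fold, adjusted p = 0.00434) and 418, 461, 390 and 421 CPM with the inhibitor (1.0 ± 0.11, 2.0-fold, adjusted p = 6.9e-06). All 4 inhibitor libraries were above all 12 others, while the siRNA libraries lay inside the LFD range. The inhibitor group exceeded the siRNA group by 0.46 ± 0.10 (adjusted p = 0.00318) and LFD by 0.47 ± 0.10 (adjusted p = 0.00241). The siRNA group had 0.01 ± 0.10 against LFD (adjusted p = 0.965). The Abcc3 calls of HFD against LFD, of both treatments against HFD, between the treatments and of the inhibitor against LFD held under all 17 alternatives of each comparison, with adjusted p of at most 0.0233.

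Abcb11, the bile salt export pump, fell on the high-fat diet. Its levels were 745, 1029, 812 and 902 CPM in LFD and 697, 564, 647 and 644 CPM in HFD, without overlap (-0.45 ± 0.11, adjusted p = 0.013). With the siRNA they were 653, 765, 639 and 736 CPM, and with the inhibitor 488, 595, 617 and 542 CPM. Neither difference from HFD passed the threshold (0.13 ± 0.11, adjusted p = 0.498, and -0.19 ± 0.11, adjusted p = 0.284). The inhibitor group was lower than LFD by 1.56-fold (-0.64 ± 0.11, adjusted p = 4.6e-04) and lower than the siRNA group (-0.32 ± 0.11, adjusted p = 0.04), with the nearest libraries at 639 and 617 CPM. That last call was lost without HFD + siRNA replicate 1, 2 or 4 or HFD + Inhib replicate 1, 2 or 4 (adjusted p between 0.0512 and 0.132). The siRNA group had -0.32 ± 0.11 against LFD (adjusted p = 0.097), which became a call without LFD replicate 1 (-0.40, adjusted p = 0.0499).

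Abcc2, the canalicular pump of conjugated bilirubin and other organic anions, had no difference beyond 0.38 on the log2 scale before the GC correction and with all libraries. HFD libraries were at 500, 537, 557 and 538 CPM, siRNA libraries at 624, 637, 617 and 601 CPM and inhibitor libraries at 592, 569, 615 and 581 CPM. Both treated groups lay wholly above HFD, but the differences of 0.22 ± 0.10 (adjusted p = 0.157) and 0.15 ± 0.10 (adjusted p = 0.334) did not pass the threshold, and groups that did not overlap were 20.6% and 23.3% of all genes in these comparisons. The LFD libraries were at 410, 585, 443 and 465 CPM. Against LFD, Abcc2 rose with the siRNA (0.38 ± 0.10, adjusted p = 0.0225) and with the inhibitor (0.31 ± 0.10, adjusted p = 0.0199). The first call was lost without LFD replicate 1 or 3 or siRNA replicate 1, 2 or 3 (adjusted p between 0.0524 and 0.071), and the second without LFD replicate 1 or 3 (adjusted p of 0.0606 and 0.0577). Without LFD replicate 2 it was also called in HFD versus LFD (0.28, adjusted p = 0.027, beside 0.16 ± 0.10 and 0.255 with it). After the GC correction, the siRNA group exceeded HFD (0.46, adjusted p = 0.0015) and the inhibitor group was lower than the siRNA group (-0.38, adjusted p = 0.00142), while the inhibitor against LFD was 0.05 (adjusted p = 0.621).

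Abcb4, the phosphatidylcholine carrier that protects the biliary tree from bile salts, was higher in all 3 groups on the high-fat diet. Its levels were 173, 255, 231 and 221 CPM in LFD and 304, 373, 333 and 296 CPM in HFD, without overlap (0.57 ± 0.11, 1.48-fold, adjusted p = 0.00337). The siRNA libraries were at 327, 402, 349 and 380 CPM (0.16 ± 0.11 against HFD, adjusted p = 0.396). The inhibitor libraries were at 432, 450, 413 and 406 CPM, above all 12 others. They exceeded HFD by 0.38 ± 0.11 (adjusted p = 0.0261) and LFD by 0.95 ± 0.11 (1.93-fold, adjusted p = 1.2e-05), and the siRNA group exceeded LFD by 0.73 ± 0.11 (adjusted p = 9.3e-04). The call against HFD was lost without HFD replicate 1 or 4 or HFD + Inhib replicate 1 or 2 (adjusted p between 0.0594 and 0.0867). Of the 50-base words in Abcb4 transcripts, 2.87% also occur in another gene, and no other gene holds more of them than its paralog Abcb1a. How such reads were divided is a limit on the values of Abcb4 and Abcb1a.

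Against LFD as a whole, 2 of the 10 genes rose with the siRNA and none fell, where 8.63% of all genes were called, 4.75% higher and 3.88% lower (median -0.02, beside -0.01 for all genes). With the inhibitor, 3 rose and 3 fell, where 36.9% of all genes were called, 18.8% higher and 18.2% lower (median -0.28, beside -0.02). The genes that fell were Cyp27a1, Baat and Abcb11, and those that rose were Abcc2, Abcc3 and Abcb4. After the GC correction 2 rose and 1 fell with the siRNA (Slc10a1), where 12.6% of the 15858 genes in that fit were called (6.67% higher and 5.91% lower). With the inhibitor 3 then rose and 4 fell, with Cyp8b1 higher, Cyp7b1 lower and Abcc2 no longer called, where 30.2% of the genes were called (14.1% higher and 16.1% lower). In the same fit, 6 of the 10 were called in HFD versus LFD (15.7% of genes), 4 with the siRNA (9.95%) and 3 with the inhibitor (21.5%) against HFD, and 6 between the treatments (29.6%). Groups did not overlap for 2 of the 10 with the siRNA (12.8% of all genes) and 5 of the 10 with the inhibitor (31.2% of all genes). Without the 2 libraries with duct markers, LFD replicate 3 and HFD + Inhib replicate 4, the siRNA against LFD called 1 of the 10, Abcb4, and Abcc2 was lost in both comparisons with LFD (0.35, adjusted p = 0.0887, with the siRNA and 0.28, adjusted p = 0.0991, with the inhibitor). Cyp7b1 in HFD versus LFD (-0.98, adjusted p = 0.0609) and Abcb11 between the treatments (-0.30, adjusted p = 0.10) were lost as well. The fold changes of these lost calls were close to those from all libraries (0.38, 0.31, -0.96 and -0.32 in the same order), with fewer samples in the fit. Cyp8b1 became a call with the inhibitor against LFD (0.69, adjusted p = 0.0121).

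Ratios within 1 library do not depend on how libraries were scaled, but they can carry the relation to GC content described above. GC content was 54.8% for Cyp8b1 and 39.7% for Cyp7a1. It was 48.8% for Abcb4 and 46.0% for Abcb11, and 54.2% for Abcc3 and 47.7% for Slc10a1. The 3 ratios of these pairs were not corrected for it. They were computed after the values had been seen, so they are given without a test. Cyp8b1 per Cyp7a1, 12α-hydroxylase per first enzyme of the classic route, overlapped between LFD (1.26 to 8.02), HFD (1.68 to 5.35) and the inhibitor (3.02 to 14.2). With the siRNA it was 1.66 to 2.49, inside the LFD range, overlapping HFD and below every inhibitor library. Abcb4 per Abcb11, phospholipid carrier per bile salt pump, was 0.252 ± 0.0225 in LFD, 0.518 ± 0.101 in HFD, 0.522 ± 0.0191 with the siRNA and 0.765 ± 0.0902 with the inhibitor (SD, n = 4). The inhibitor libraries were at 0.887, 0.756, 0.669 and 0.749, and the highest HFD library was at 0.661. Abcc3 per Slc10a1, basolateral export per basolateral uptake, was 0.761 ± 0.123 in LFD, 0.473 ± 0.0612 in HFD, 1.03 ± 0.114 with the siRNA and 1.18 ± 0.169 with the inhibitor. The HFD libraries (0.434 to 0.563) were below all others, and the siRNA (0.880 to 1.15) and inhibitor (0.957 to 1.37) libraries overlapped each other.

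**Figure D3:**
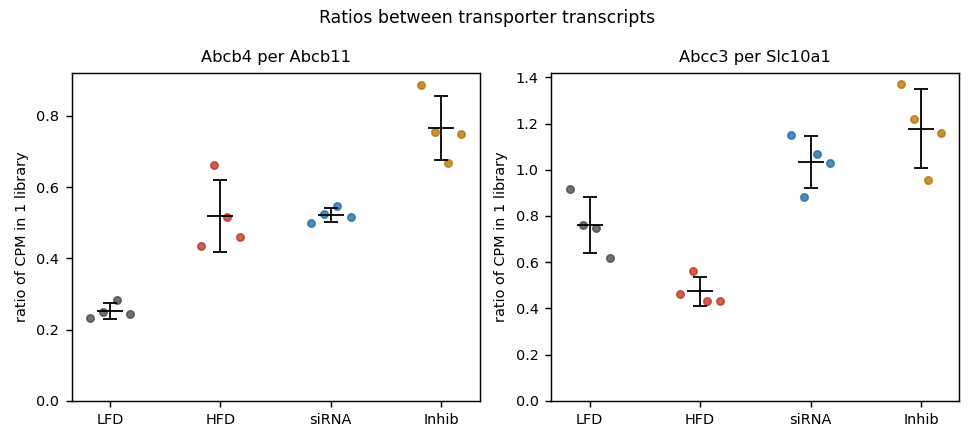
Ratio of CPM within 1 library on the y axis from 0, for Abcb4 per Abcb11 (left) and Abcc3 per Slc10a1 (right), with the 4 groups on the x axis (siRNA and Inhib on the high-fat diet). Points are libraries, bars give the mean ± SD of 4, and the ratios are not corrected for GC content. On the left HFD and siRNA lie at the same height (0.518 and 0.522), and on the right both treated groups (1.03 and 1.18) lie above HFD (0.473).

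More of the other synthesis genes were called with the inhibitor than with the siRNA. Of 15 further enzymes and peroxisomal proteins, 14 were tested (Ch25h was not, with at most 7 counts in a library). In HFD versus LFD 1 rose and 2 fell (9.58% and 8.80% of all genes). Relative to HFD 1 rose and 1 fell with the siRNA (5.20% and 6.55% of all genes), and 6 rose and 4 fell with the inhibitor (9.80% and 8.42% of all genes, median 0.20, beside 0.00 for all genes). Abcd3, a transporter of the peroxisomal membrane, rose from 531 ± 46.1 to 1746 ± 196 CPM (3.28-fold, adjusted p = 3.4e-07). Slc27a2, which activates very long chain fatty acids and bile acid precursors with coenzyme A, rose from 712 ± 72.6 to 1885 ± 175 CPM (2.65-fold, adjusted p = 1.7e-06). Hsd17b4, the bifunctional enzyme of peroxisomal β-oxidation, rose from 390 ± 34.6 to 808 ± 11.8 CPM (2.07-fold, adjusted p = 2.9e-06). These 3 act on fatty acids as well as on the side chain of bile acids. Their values between the treatments were also past the threshold, at 1.90, 1.05 and 0.96 on the log2 scale.

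Of the same enzymes, Cyp2c70, Cyp39a1, Akr1d1 and Akr1c6 fell with the inhibitor relative to HFD. Hsd3b7, Slc27a5, Scp2 and Cyp46a1 were not called there. Cyp2c70, which makes the muricholic acids of mice, was at 217 ± 43.7 CPM in HFD and 98.9 ± 11.8 CPM with the inhibitor (-1.13 ± 0.17, adjusted p = 1.9e-04), and it was already lower in HFD than in LFD (-0.54 ± 0.17, adjusted p = 0.0315). Cyp39a1, the 7α-hydroxylase of 24-hydroxycholesterol, was at 35.0 ± 10.1 CPM in HFD and fell with the siRNA to 12.1 ± 2.23 CPM (-1.53 ± 0.30, adjusted p = 0.00499). With the inhibitor it was at 8.38 ± 3.44 CPM (-2.05 ± 0.31, adjusted p = 2.3e-04). Acox2, the peroxisomal oxidase of branched chains and bile acid side chains, rose with the siRNA (0.44 ± 0.10, adjusted p = 0.00834) and with the inhibitor (0.29 ± 0.09, adjusted p = 0.0454), and Amacr, the racemase of the same side chain pathway, rose with the inhibitor (0.36 ± 0.12, adjusted p = 0.0425). In HFD versus LFD, Akr1d1, the 5β-reductase that shapes the ring system of bile acids, rose by 1.67-fold (adjusted p = 0.00355). It fell with the inhibitor, from 261 to 152 CPM (-0.78 ± 0.15 against HFD, adjusted p = 0.0016), beside 156 CPM in LFD and 234 CPM with the siRNA. Slc27a5, the bile acid coenzyme A ligase that acts before Baat, fell in HFD versus LFD by 1.38-fold (log2 fold change -0.47, adjusted p = 0.0329).

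Some uptake carriers fell with the inhibitor and a second basolateral pump rose. Of 7 further basolateral transporters 5 were tested, and relative to HFD none was called with the siRNA (11.7% of all genes were), and with the inhibitor 1 rose and 3 fell (9.80% and 8.42% of all genes). Slco1a4 and Slco1a1, organic anion carriers of the basolateral membrane, went from 49.4 ± 19.0 to 8.14 ± 4.14 CPM (-2.59 ± 0.39, adjusted p = 2.4e-04) and from 331 ± 75.5 to 91.7 ± 40.2 CPM (-1.85 ± 0.31, adjusted p = 4.9e-04). Slco2b1 fell less (-0.32 ± 0.08, adjusted p = 0.0129). Slco1b2, the most abundant carrier of this list in counts, was not called (1206 CPM in HFD and 923 CPM with the inhibitor, -0.39 ± 0.22, adjusted p = 0.262), nor was Slc10a1. Abcc4, an export pump beside Abcc3, had 4.96 ± 1.07 CPM on the low-fat diet and 3.07 ± 0.498 CPM in HFD (-0.68 ± 0.19, adjusted p = 0.0185), and at 6.53 ± 1.46 CPM with the inhibitor (1.09 ± 0.18 against HFD, adjusted p = 6.2e-04). With the siRNA it was at 3.51 ± 0.346 CPM and was not called. Slc51a and Slc51b, the subunits of the organic solute transporter, had at most 6 and 12 counts in a library and were not tested.

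Among 6 further canalicular proteins, 2 rose with the inhibitor and 2 fell with the siRNA relative to HFD (9.80% and 6.55% of all genes). Abcg2, an export pump of sulfated compounds and drugs, was at 63.4 ± 10.9 CPM in HFD and 120 ± 15.5 CPM with the inhibitor (0.92 ± 0.16, adjusted p = 7.1e-04). Tmem30a, the partner subunit of phospholipid flippases such as Atp8b1, was at 147 ± 8.04 CPM in HFD, 85.7 ± 11 CPM with the siRNA (-0.77 ± 0.11, adjusted p = 5.9e-04) and 183 ± 13.2 CPM with the inhibitor (0.32 ± 0.11, adjusted p = 0.0479). Its difference between the treatments was 1.10 ± 0.11 (adjusted p = 2.3e-06). Abcb1a, the drug pump whose reads can be shared with Abcb4, fell with the siRNA from 8.35 ± 3.36 to 3.15 ± 1.18 CPM (-1.40 ± 0.35, adjusted p = 0.0171).

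Of 12 receptors and factors that control these genes, none was called with the siRNA relative to HFD (11.7% of all genes were), and with the inhibitor 1 rose and 3 fell (9.80% and 8.42% of all genes). These are counts of few genes, and their distance from the background shares was not tested. Nr1i2, the xenobiotic receptor PXR, rose from 43.4 ± 3.32 to 68.2 ± 5.18 CPM (0.65 ± 0.09, adjusted p = 8.4e-05). Fgfr4, the receptor through which the gut hormone FGF15 represses synthesis, fell from 34.5 ± 4.48 to 20 ± 4.94 CPM (-0.79 ± 0.19, adjusted p = 0.00795). Nr0b2, the repressor SHP, which the bile acid receptor induces, fell from 39.2 ± 4.11 to 22.6 ± 5.30 CPM (-0.79 ± 0.23, adjusted p = 0.0227). Mafg, another repressor of the synthesis genes, fell by 0.38 on the log2 scale (adjusted p = 0.0313). Between the treatments 2 regulators were higher and 6 lower with the inhibitor (17.3% and 16.6% of all genes), Nr0b2 (-1.13 ± 0.23, adjusted p = 0.00143), Fgfr4 (-1.0 ± 0.19, adjusted p = 8.0e-04) and Rxra (-0.54 ± 0.12, adjusted p = 0.00206) among the latter.

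The bile acid receptor itself, Nr1h4 (FXR), was not called in any of the 6 comparisons, with 97.8 ± 6.18 CPM in LFD, 105 ± 10.8 in HFD, 95.6 ± 5.02 with the siRNA and 107 ± 4.18 with the inhibitor. Klb, the coreceptor of Fgfr4, was not called in any either, at 61.9 ± 5.51, 61.0 ± 6.89, 59.4 ± 7.11 and 59.0 ± 8.19 CPM in the same order. Ppara, a receptor for fatty acids that also acts on bile acid genes, was the regulator called in HFD versus LFD (0.81 ± 0.13, adjusted p = 7.6e-04). Against LFD it was also higher with the siRNA (0.68 ± 0.13, adjusted p = 0.00326) and with the inhibitor (1.1 ± 0.13, adjusted p = 9.0e-06). The inhibitor group exceeded the siRNA group (0.42 ± 0.13, adjusted p = 0.0165). Relative to HFD, neither the siRNA (-0.13 ± 0.13, adjusted p = 0.56) nor the inhibitor (0.29 ± 0.13, adjusted p = 0.12) passed the threshold.

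**Figure D4:**
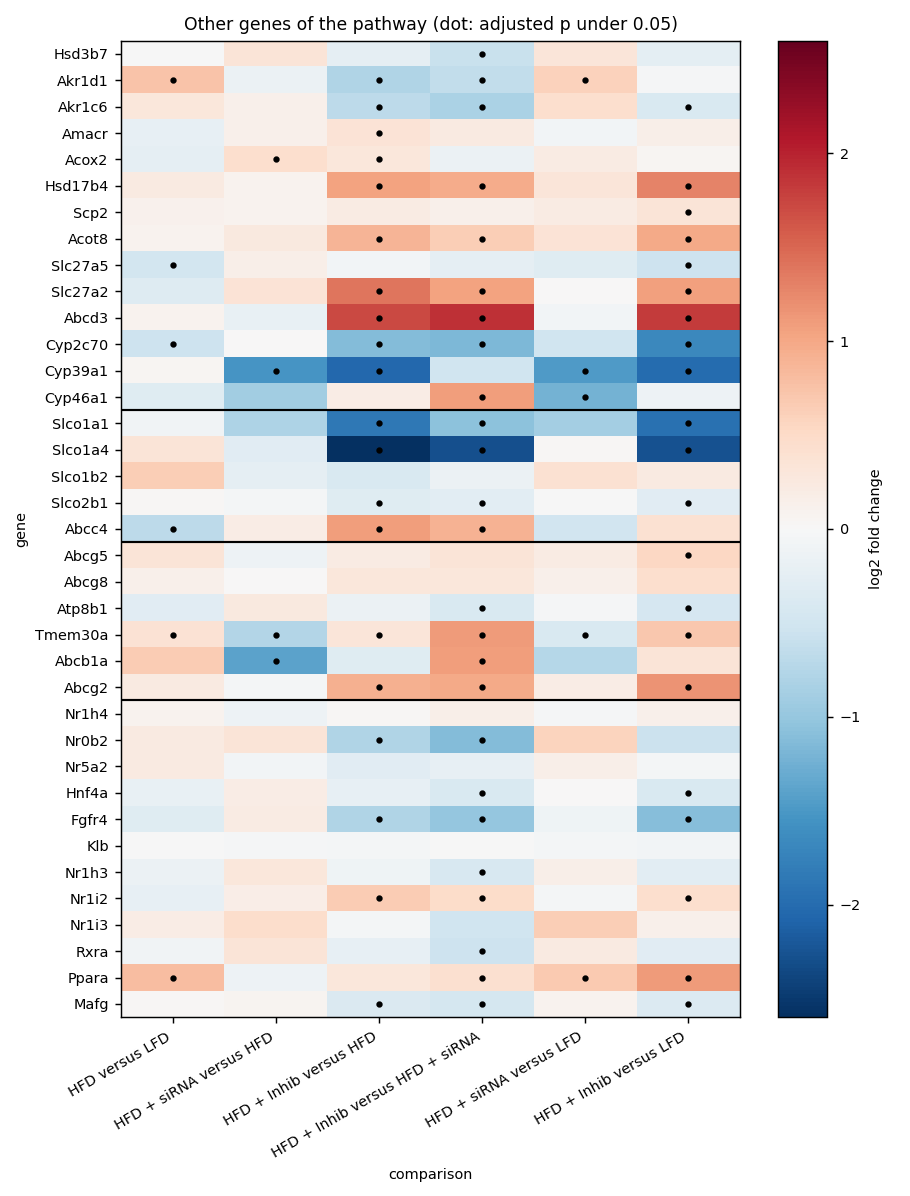
Log2 fold change of the other genes of the pathway (rows, in 4 blocks from top to bottom of synthesis enzymes, uptake and basolateral transporters, canalicular proteins and regulators) in the 6 comparisons (columns). Colour gives the log2 fold change on the scale beside it, and a dot marks an adjusted p under 0.05. The comparisons that contain the inhibitor hold most dots, from Abcd3 (1.72) to Slco1a4 (-2.59) against HFD.

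Cyp7a1 is known to follow the daily rhythm in mouse liver, and the libraries differed in clock genes. The time of day of collection is not given in the sources used here. Of 14 clock genes, 3 rose and 2 fell in HFD versus LFD (9.58% and 8.80% of all genes), and none was called with the siRNA or the inhibitor relative to HFD (11.7% and 18.2% of all genes were). Between the treatments 1 was higher and 3 were lower with the inhibitor (17.3% and 16.6% of all genes). Npas2 (-2.40, adjusted p = 0.00529), Cry1 (-1.37, adjusted p = 0.00727) and Arntl (-1.37, adjusted p = 0.0419) were lower, with overlapping libraries, and Nr1d2 was higher (0.79, adjusted p = 0.0308). Arntl and Dbp, chosen after their values were seen because they peak at opposite times, varied within groups. Arntl was at 26.7, 30.1, 36.5 and 14.7 CPM in LFD, 12.2, 17.1, 11.2 and 5.04 in HFD, 16.5, 21.3, 10.2 and 38.8 with the siRNA, and 4.28, 9.25, 16.9 and 3.12 with the inhibitor. Dbp was at 4.74, 9.35, 1.49 and 32.5 CPM in LFD, 34.8, 14.7, 37.9 and 77.1 in HFD, 37.2, 16.2, 59.2 and 3.98 with the siRNA, and 59.0, 25.6, 11.3 and 62.5 with the inhibitor. In the inhibitor group the libraries with the highest Dbp, replicates 1 and 4, also had the highest Cyp7a1 (132 and 117 CPM). In HFD both genes were highest in replicate 4 (Cyp7a1 at 204 CPM). In LFD the highest Cyp7a1 (216 CPM) was in replicate 1, where Dbp was at 4.74 CPM. With the siRNA it was in replicate 2 (183 CPM), where Dbp was at 16.2 CPM. The part of collection time in the spread of Cyp7a1 was not tested.

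**Figure D5:**
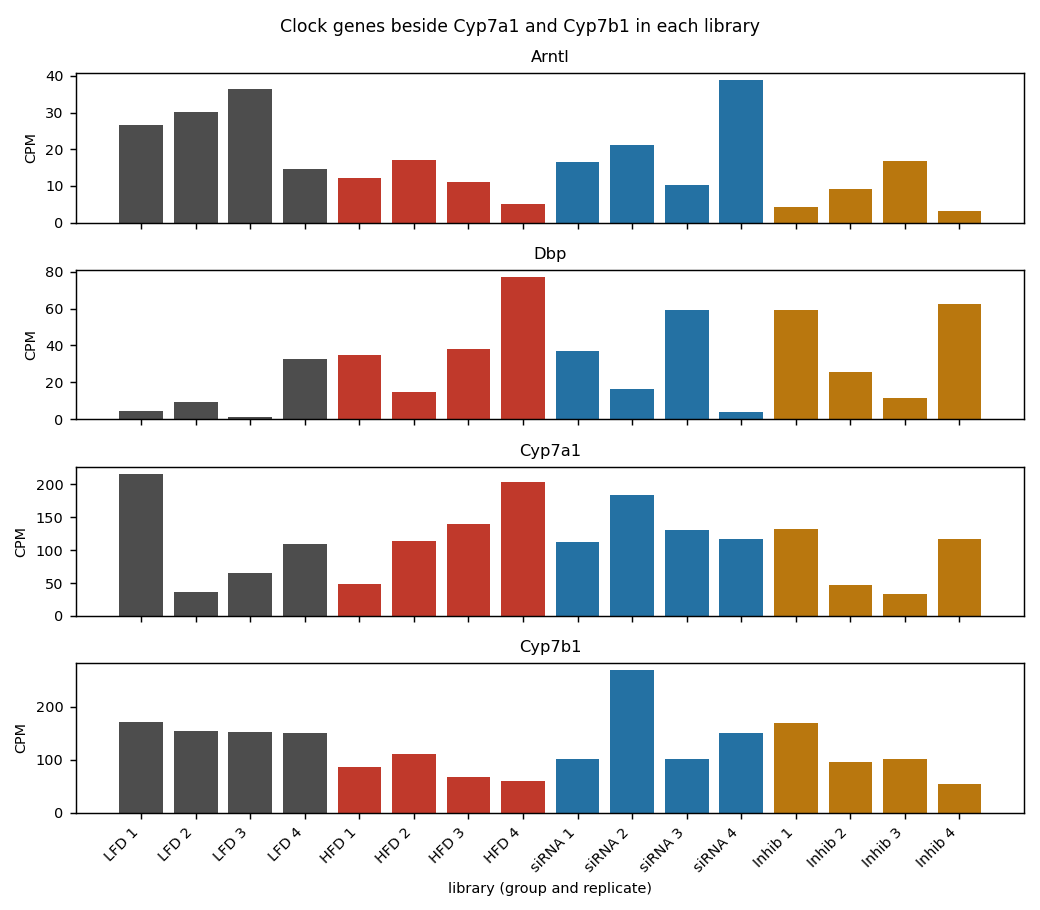
CPM from 0 on the y axis in each of the 16 libraries (x axis, group and replicate, with siRNA and Inhib on the high-fat diet) for the clock genes Arntl and Dbp and for Cyp7a1 and Cyp7b1. Each bar is 1 library. Arntl is highest in HFD + siRNA replicate 4 (38.8 CPM) and lowest in HFD + Inhib replicate 4 (3.12 CPM), and Dbp runs the other way in both (3.98 and 62.5 CPM).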

How the data were processed

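Liver RNA was sequenced in 16 libraries, 4 in each group. The values deposited by the authors are expected counts for each gene symbol in a single table, with no scaling between libraries. Per the submitters' processing notes, STAR, RSEM and build mm39 were used, with no versions given. The methods of the study name HTG EdgeSeq, a probe assay, which does not match expected counts, so the assay is open. Of the deposited values 15.1% were not whole, and all were rounded. Totals ranged from 24317111 to 35820234 (median 29570114), and p-values measure the spread between these mice. Libraries of 1 group differed from each other by 20.5 to 152 in chi-square per gene, so none was taken as a repeat.

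Genes passing filterByExpr (minimum count 10, minimum total 15), 18335 of 33460 with any count, were fitted together over 16 libraries with TMM scaling in edgeR 4.0.16 (R 4.3.3), tested by the quasi-likelihood test and adjusted by the Benjamini-Hochberg method over all 18335. Scripts were tested on simulated data. CPM per kb used the median GENCODE M21 transcript length. Alternatives were DESeq2 1.42.0, its size factors (RLE), no filter, 10 counts in every library, and a fit restricted to the 2 groups of a comparison. Others were a replicate block, omission of each replicate, an adjusted p under 0.01, and offsets from a trend on GC content and length. That trend was fitted by linear regression on splines in R. It covered 15858 genes (86.5%) and lowered the dispersion from 0.038 to 0.0297. Leaving out the 2 libraries with bile duct markers was added after seeing the data.

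The members, gene lists and tests were chosen with earlier results of these data known. The 10 genes and Khk are named throughout. From each list of synthesis, basolateral, canalicular and regulator genes, up to 4 a comparison with the smallest adjusted p under 0.05 are named, from the clock, male-biased and female-biased lists up to 2, and Abcc4, Slc51a, Slc51b, Nr1h4, Nr0b2, Fgfr4 and Klb in any case. From the markers of hepatocytes, bile duct, ileum, macrophages, stellate cells, endothelium, lymphocytes, adipocytes and pancreas, the most abundant gene and those at 0 are named. Krt19, Muc1, Krt7, Epcam, Sox9, Arntl, Nr1d2 and Dbp were chosen after their values were seen. So were the markers and Slco1b2 given with values that did not pass the test. The same holds for Cyp39a1, Acox2, Akr1d1, Amacr, Akr1c6, Hsd3b7, Slc27a5, Scp2, Cyp46a1 and Ppara with the inhibitor, and for Ppara with the siRNA relative to HFD. Replicate numbers did not pair the samples. Positions are given only for the promoter stretches, on GRCm38.p6, since no mm39 reference was used here.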

Additional observations from a re-analysis of the deposited data

Results flagged for a closer look

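A library far from the other 3 of its group was found in 1 of the 40 combinations of a gene and a group that were examined (10 genes in 4 groups), while chance flags about 1 in 20 groups. It was Abcc3 in HFD + siRNA replicate 3, at 338 CPM, where the other 3 libraries were at 295, 297 and 299 CPM. Its gap to the nearest library was 0.891 of the range of the group, past Dixon's critical value for 4 samples. The difference between HFD + siRNA and HFD stayed a call with each of the 8 libraries left out in turn (log2 fold change 0.48 to 0.55, adjusted p between 0.00854 and 0.0207 in edgeR's quasi-likelihood test). Replicate 3 was not among the libraries with bile duct markers.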

How the results depend on the processing

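Of the 1020 fits of a gene in a comparison under an alternative (10 genes, 6 comparisons, 17 alternatives), 933 kept their direction and side of the threshold, 46 lost a call, 21 gained one and 20 changed sign. All 60 were kept under RLE size factors, a minimum of 10 counts in every library, and the replicate block, which changed no call of the 10 genes. Same-numbered libraries did not vary together (r between -0.132 and 0.336, with 0 to 2 libraries best correlated with their own number). DESeq2 gained 2 calls, no filter lost 1, and the fit of the 2 groups alone lost 3, leaving 1 of the 10 genes and 808 of all genes called for the siRNA against LFD (1582 in the fit of all libraries). At an adjusted p under 0.01, the called genes among the 10 numbered 3 (HFD versus LFD) and 1 each (siRNA or inhibitor against HFD, siRNA against LFD), and among all genes 1287 of 3370 (HFD versus LFD), 689 of 2154 and 1733 of 3339 (siRNA and inhibitor against HFD), 3711 of 6204 (between the treatments), and 566 of 1582 and 4123 of 6767 (siRNA and inhibitor against LFD). The GC correction gained 9 calls and lost 1, so that 4 of the 10 and 1578 of 15858 genes were called for the siRNA against HFD. It reversed the uncalled values of Cyp7a1 (-0.25) and Abcc2 (-0.03) in HFD versus LFD. Without both libraries with bile duct markers, 1745 genes were called for HFD versus LFD, 917 (1 of the 10) for the siRNA against LFD and 4398 for the inhibitor against LFD, from fewer samples. With 1 library left out, 2001 (LFD replicate 3) to 3691 genes were called for HFD versus LFD, 1100 (HFD replicate 3) to 1981 for the siRNA against HFD (1 to 2 of the 10) and 965 (HFD + siRNA replicate 3) to 1456 for the siRNA against LFD (1 to 3 of the 10), and 2532 to 3050 (1 to 3 of the 10) for the inhibitor against HFD. Uncalled values that changed sign in these fits were, for HFD versus LFD, Cyp7a1 (-0.08 to 0.87), Cyp8b1 (-0.11 to 0.23) and Slc10a1 (-0.04 to 0.27). They were Cyp7a1 for the siRNA against HFD (-0.17 to 0.41), Cyp27a1 for the inhibitor against HFD (-0.07 to 0.08) and Cyp7a1 for the inhibitor against LFD (-0.70 to 0.24). For the siRNA against LFD they were Cyp7b1 (-0.43 to 0.14), Baat (-0.12 to 0.04) and Abcc3 (-0.10 to 0.08). The cause was not tested. With the longest transcript in place of the median one, LFD levels per kb were 109 for Baat, 59.3 for Abcc2 and 53.9 for Abcb4. With 4 libraries a group, depth was not the limit for the 10 genes, which had between 1005 and 28709 counts in a library.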

Other observations

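Markers of other cells were measured beside the 10 genes. The adipocyte list rose with the inhibitor through Cfd (adipsin), its most abundant gene, at 52.3, 16.9, 43.4 and 25.4 CPM in HFD + Inhib and 0.797 to 6.70 CPM in HFD (log2 fold change 3.68, adjusted p = 3.1e-04), while Lep was at 0 in all 4 inhibitor libraries, Plin1 and Retn in 3 and Adipoq in 2. Of 7 lymphocyte markers, summed at 1.53 to 2.65 CPM with the inhibitor and 3.11 to 8.17 CPM in HFD, Cd4 was the most abundant and fell with the inhibitor (-1.98, adjusted p = 5.4e-04) but rose with the siRNA (1.62, adjusted p = 0.00202). Macrophage markers, led by Clec4f, summed to 112 to 182 CPM with the inhibitor and 163 to 199 CPM in HFD, stellate cell markers, led by Reln, to 267 to 302 and 347 to 431 CPM, and endothelial markers, led by Stab2, to 242 to 259 and 242 to 281 CPM.

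The bile duct and gallbladder list summed to 62.5 to 89.4 CPM in HFD and 36.3 to 70.3 CPM with the inhibitor. Slc10a2, the bile acid carrier of cholangiocytes and ileum and its most abundant gene in mean level in HFD (37.5 CPM), fell with the inhibitor to 14.4 CPM (-1.38, adjusted p = 0.0199), where Spp1 exceeded it in all 4 libraries. None of the other 7 genes was called, where 18.2% of all tested genes were. Spp1 had a lower mean with the inhibitor than in HFD (21.2 and 27.2 CPM, log2 fold change -0.36). Krt19, Muc1, Sox9, Epcam, Krt7 and Cftr had higher means (1.89, 2.22, 0.34, 0.32, 0.45 and 0.38), and for Krt19 and Muc1 most of this came from HFD + Inhib replicate 4 (8.81 and 8.78 CPM). Apoa4, an apolipoprotein that the liver also makes, was nearly the whole of the ileum list, at 81.6 to 101 CPM in LFD, 448 to 1150 CPM in HFD, 159 to 193 CPM with the siRNA and 45.7 to 59.2 CPM with the inhibitor. It fell with both treatments relative to HFD (-1.97, adjusted p = 1.2e-04, and -3.67, adjusted p = 4.5e-08). Fabp6, an ileal bile acid binding protein, was at 0 in all 16 libraries, Fgf15 at 0 in 14 and Lct at 0 in 8. Pancreas markers summed to at most 1.56 CPM, except in LFD replicate 3 (6.51 CPM), where Ctrb1 was at 6.15 CPM. Prss2 was at 0 in 15 libraries, Pnlip in 14, Cpa1 in 13, Ctrb1 in 11 and Cela2a in 3, and Prss2, Pnlip and Cpa1 were at 0 in all 4 inhibitor libraries.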
